A study of Mus musculus with 8 samples.

Results

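The cytosolic ribosomal protein genes encode the proteins of the large (60S) and small (40S) subunits of the ribosome that translates nuclear-encoded messengers. They were taken as every protein-coding gene of the deposited table whose symbol starts with Rpl or Rps and a digit, plus Rpsa, Rplp0, Rplp1 and Rplp2, without the S6 kinases, Rps19bp1 and symbols holding -ps. The rule gave 84 of the 34450 genes in the table, 51 with large subunit and 33 with small subunit symbols, on 19 chromosomes. Of these, 83 had a mean of at least 0.5 FPKM (fragments per kilobase of transcript, relative to the depth of the library) and were tested. The remaining member, Rpl10l, a copy known for its expression in testis, was listed at 0 in all 8 libraries. Rpl39l and Rps4l were not analysed here.

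The study profiled kidneys of C57BL/6J mice aged 8 weeks at day 3 after ischaemia-reperfusion injury (IRI), in which renal blood flow is stopped and then restored. The 4 hypoxia libraries (numbered 1 to 4) came from mice that had been exposed to hypoxia ahead of the injury, and the 4 normoxia libraries (5 to 8) from mice held in normoxia ahead of it. All 8 kidneys had been injured, and no uninjured kidney was analysed here. The comparison asks what preconditioning by hypoxia does to the transcriptome of the injured kidney. The labels do not state that each library is a separate mouse, so the p-values speak of the scatter among the libraries alone, and this may be technical. All 11 markers of nephron epithelium that were looked up were present in every library.

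Ribosomal proteins are made in near-equal amounts and assembled on ribosomal RNA (rRNA) in the nucleolus, and their messengers are among the most abundant of growing cells. Many of these messengers begin with a C and a run of pyrimidines, the 5′ terminal oligopyrimidine (TOP) motif, through which mTORC1 and LARP1 control their translation. In the kidney, cell growth and division during repair of the tubules call for new ribosomes, and free Rpl5 and Rpl11 bind MDM2 and stabilise p53 when ribosome assembly is disturbed.

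RefSeq promoter windows (build GRCm38.p6) were found for 64 of the 84 members, with 76 annotated starts in all. A TOP start was searched on the sense strand as a C at the annotated start followed by at least 4 further pyrimidines. It was present at 14 of the 76 member starts (18.4%) and at 823 of 32851 starts of all genes (2.51%). Below are 5 members with long runs, each from 15 bases before to 15 bases from the annotated start, with the run in capitals. Rpl15 lies at chr14:18270972-18271001 (minus strand), Rpl35 at chr2:39005117-39005146 (minus), Rps18 at chr17:33955651-33955680 (minus), Rps6 at chr4:86857353-86857382 (minus) and Rpl38 at chr11:114668565-114668594 (plus).
Rpl15: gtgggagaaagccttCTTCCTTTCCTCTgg
Rpl35: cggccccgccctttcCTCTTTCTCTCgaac
Rps18: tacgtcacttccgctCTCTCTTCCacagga
Rps6: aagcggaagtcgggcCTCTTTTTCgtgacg
Rpl38: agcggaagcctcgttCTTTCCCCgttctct
The match depends on the exact annotated base, and a start without one says only that these letters are not at that base. The median log2 change (hypoxia minus normoxia) was -1.14 in the 14 members with a TOP start and -1.10 in the 49 tested members with a window and none. The 5 printed starts belong to members whose log2 changes ran from -0.63 (Rps6) to -1.76 (Rpl38).

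The libraries differed strongly in how much ribosomal protein messenger they held. The summed FPKM of the members was 6207, 7336, 1529 and 1458 in hypoxia libraries 1 to 4, and 28160, 3617, 14200 and 2705 in normoxia libraries 5 to 8. Normoxia 5 was thus 19.3-fold above hypoxia 4, hypoxia 1 and 2 exceeded hypoxia 3 and 4, and the 2 groups overlapped. The family median had the same layout, with 54.1, 69.2, 12.9 and 12.9 FPKM after hypoxia and 128.9, 30.0, 126.2 and 22.8 FPKM after normoxia. Of the 83 tested members, 82 were highest in normoxia 5 (46 members) or normoxia 7 (36 members), and 81 were lowest in hypoxia 3 or 4. For 81 members hypoxia 1 and 2 both lay above normoxia 6 and 8, so the overlap of the groups was the same in nearly the whole family.

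Several properties of the libraries moved with these levels. Nuclear and mitochondrial rRNA took 40.95%, 21.55%, 66.3% and 67.4% of the estimated fragments in hypoxia libraries 1 to 4, and 13.55%, 62.95%, 28.0% and 72.5% in normoxia libraries 5 to 8. The 4 libraries with the most rRNA were the 4 with the lowest family medians, and the rRNA genes stand in the same table on the same scale. Depth, estimated from the spacing of low values, ran from 8500000 to 14300000 fragments per library. The precision of a member depends on the fragments behind it, which for Rplp0 were about 783 in its lowest library and for Rpl22l1 about 5.9. Normoxia 5 also stood apart in length: its genes with under 1888 exonic bases lay a median of 0.41 above their own mean over the libraries on the log2 scale, and the deviation of genes with over 6032 exonic bases was -0.66. Members are short, with a median exon length of 1754 bases against 3654 for all tested genes.

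**Figure D1:**
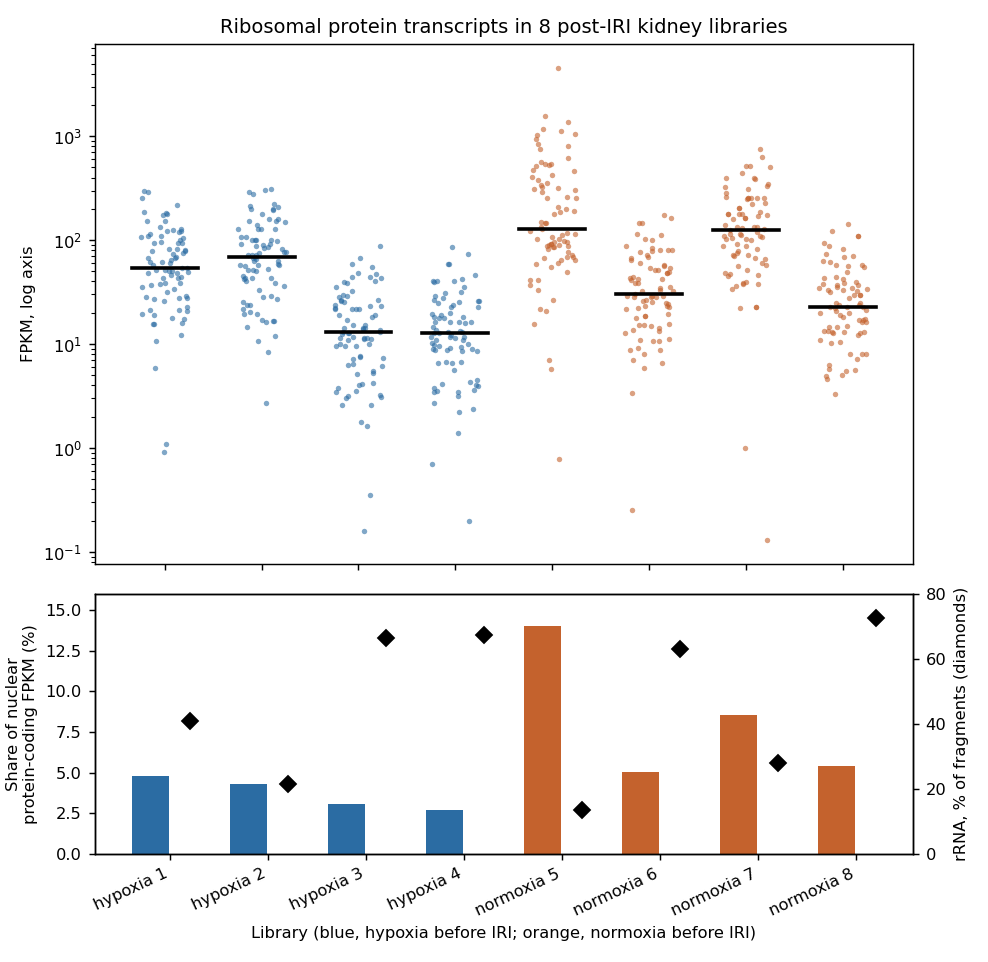
The upper panel gives the FPKM of each tested ribosomal protein gene (1 point per gene, log axis, black bar at the median) in each of the 8 libraries, without 1 value listed at 0 (Rpl3l in normoxia 8). The lower panel gives the family's share of nuclear protein-coding FPKM (bars, from 2.70% to 14.0%) and the rRNA share of fragments (diamonds), and the bars of the hypoxia libraries are all below those of the normoxia libraries, although with 20 highly expressed genes left out of the total (not drawn) hypoxia 1 (6.04%) exceeded normoxia 6 (5.64%) and 8 (5.91%).

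In the values as deposited, ribosomal protein messengers were lower in the mean after hypoxia in 82 of the 83 tested members, but none passed the test. With limma on log2(FPKM + 0.5), no member (0 of 83) was higher and none (0 of 83) lower at an adjusted p under 0.05, where 0.305% of all 14444 tested genes were called higher and 0.602% lower. Without adjustment (p under 0.05), 0 members were higher and 2 lower (2.41%), namely Rps12 and Rps13, against 6.84% of all genes called lower. No member had groups that did not overlap, against 4.92% of all genes. The members' adjusted p ran from 0.512 to 0.992.

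The median log2 change of the members was -1.18, which is 1.05 below the median of all tested genes (-0.14), and the standard errors of single members (0.47 to 1.28, median 0.85) were close to the changes themselves. The 50 tested large subunit members had a median of -1.19 (from -2.10 for Rpl37a to 0.74 for Rpl3l) and the 33 small subunit members a median of -1.18 (from -1.74 for Rps12 to -0.63 for Rps6). The members vary together from library to library, so these counts are not independent of one another. Without normoxia 5 the median was -0.72 (all genes -0.21), and without hypoxia 3 it was -0.79 (all genes -0.01). In whole tissue, fewer cells of a type and less RNA per cell cannot be told apart.

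**Figure D2:**
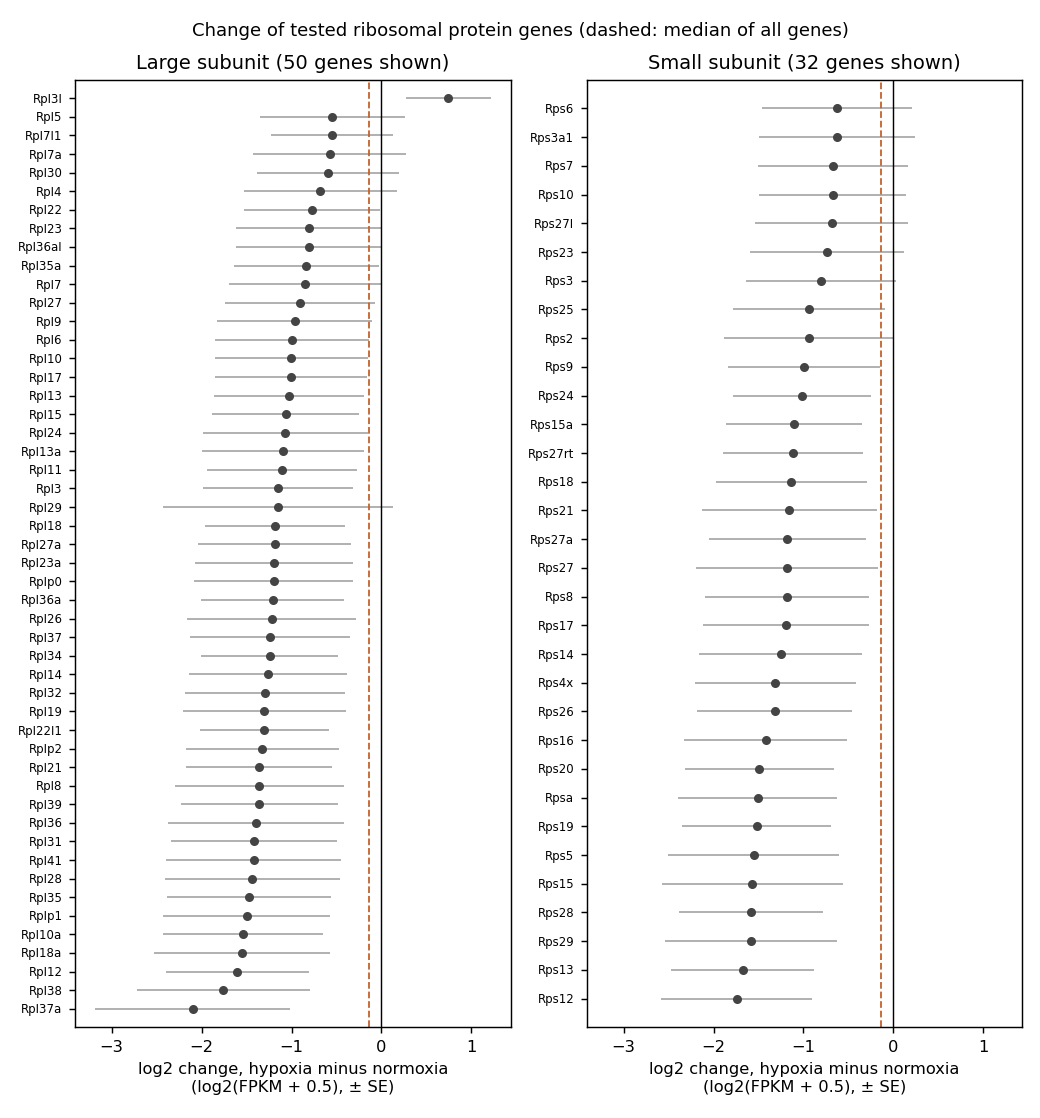
Log2 change (hypoxia minus normoxia, points) with its standard error (bars) of the tested members (1 not shown), large subunit on the left and small subunit on the right, with the median of all tested genes as a dashed line. All points but Rpl3l lie below 0, and the bars are about as wide as the changes.

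The family's share of the messenger pool was measured next, with the FPKM of all nuclear protein-coding genes as the total, in which rRNA has no part. This total was chosen after the data had been seen. The members made up 4.78%, 4.27%, 3.05% and 2.70% of it in hypoxia libraries 1 to 4 and 14.0%, 5.01%, 8.54% and 5.41% in normoxia libraries 5 to 8. The groups did not overlap, with 3.70% ± 0.985 (SD, n = 4) after hypoxia and 8.24% ± 4.16 (SD, n = 4) after normoxia. The ratio of the means was 2.23, and 1.71 without normoxia 5, whose normoxia mean was 6.32% ± 1.93 (SD, n = 3). Hypoxia 1 and normoxia 6 were the closest libraries of the 2 groups. The separation depended on the total: with the 20 other protein-coding genes of highest mean FPKM left out of it, the shares were 6.04%, 5.46%, 3.45% and 3.25% after hypoxia and 16.3%, 5.64%, 9.44% and 5.91% after normoxia, so that hypoxia 1 lay above normoxia 6 and 8.

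With all nuclear protein-coding genes in the total, 26 members (31.3%, 16 large and 10 small subunit) had every hypoxia library below every normoxia library, against 11.4% of all genes with groups that did not overlap in either direction. Single members were not compared with the 20 highest genes left out of the total. At an unadjusted p under 0.05, 37 members were lower (44.6%) against 8.58% of all genes, and 0 were higher. None passed at an adjusted p under 0.05 (limma, smallest 0.0736, for Rpl12), against 0.976% of all genes called lower. The median log2 change of the members was -0.94 and that of all genes 0.015. Without normoxia 5, 7 members fell (8.43%): Rpl12, Rpl3, Rps6, Rps13, Rps24, Rps28 and Rpsa, a share below the 11.9% of all genes called lower in that fit, in which the median of all genes was -0.25. Under quantile normalization 1 member fell, Rpl12, against 2.42% of all genes.

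The family median was below 0 under each scaling that was run, but its size varied. It was -1.0 with TMM scaling, -0.79 with quantile normalization and -0.93 after the trend with exon length was removed. With TMM scaling and without normoxia 5 it was -0.42, or 0.45 below the median of all genes. Without normoxia 5 the length-corrected value was -0.54, and protein-coding scaling gave -0.79, or 0.53 below the median of all genes.

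**Figure D3:**
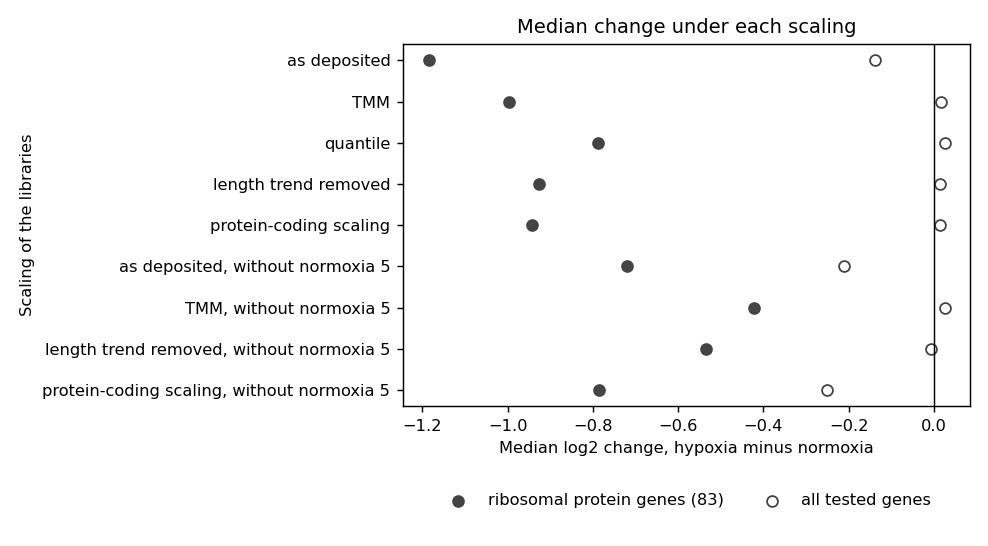
Median log2 change (hypoxia minus normoxia) of the 83 tested members (filled circles) and of all tested genes (open circles) under 9 ways of scaling the libraries. The members' median runs from -1.18 as deposited to -0.42 with TMM scaling and without normoxia 5, and lies left of the median of all genes each time.

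Markers of several other cell types were also at different levels in the 2 groups. On the deposited scale the sum over immune cell markers (15 of 16 in the table) was 17.6 to 83.4 FPKM after hypoxia and 103.7 to 538.1 FPKM after normoxia. All 9 tested immune markers were lower in the mean and none passed, and 8 were listed at 0 in at least 1 library but none in all 8. As a share of nuclear protein-coding FPKM they made up 0.0351% to 0.0642% after hypoxia and 0.205% to 0.323% after normoxia. The 8 markers of cycling cells summed to 1.68 to 15.6 FPKM after hypoxia and 24.1 to 136.1 FPKM after normoxia. As deposited, 5 of them fell, where 0.602% of all tested genes were called lower. As a share of protein-coding FPKM they made up 0.00311% to 0.012% after hypoxia and 0.012% to 0.117% after normoxia. On that scale hypoxia 1 and normoxia 5 were alike, at 0.012% each. Markers of fibroblasts and smooth muscle (8 of 8 tested, 0 called) summed to 29.0 to 63.9 FPKM after hypoxia and 109.8 to 336.8 FPKM after normoxia. The 11 nephron markers, of which 1 rose as deposited (against 0.305% of all genes), made up 1.01% to 1.5% of protein-coding FPKM after hypoxia and 0.470% to 0.881% after normoxia. On the deposited scale their sums overlapped, at 745.2 to 2323 FPKM after hypoxia and 238.8 to 944.9 FPKM after normoxia, and 3 markers were below 0. Red cell markers (5 of 6 tested, 0 called, none below 0) ran the other way, at 0.283% to 0.468% of protein-coding FPKM after hypoxia and 0.0206% to 0.273% after normoxia, and normoxia 5 held 548.7 FPKM of them against 10.3 to 51.3 FPKM in normoxia 6 to 8. Endothelial markers (6 of 6 tested, 0 called) overlapped, at 0.0180% to 0.0391% after hypoxia and 0.00877% to 0.0315% after normoxia. The part of these cell types in the levels of the ribosomal protein messengers was not tested.

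The P-stalk proteins Rplp0, Rplp1 and Rplp2, which recruit elongation factors to the ribosome, included the most abundant large subunit member. Rplp1 stood at 288.8, 304.2, 66.7 and 73.6 FPKM in hypoxia libraries 1 to 4 and at 1563, 162.0, 760.6 and 144.1 FPKM in normoxia libraries 5 to 8. Its log2 change was -1.5 ± 0.93 (SE; limma adjusted p = 0.734). Normoxia 5 and 7 were the high libraries, and hypoxia 1 and 2 lay between them and normoxia 6 and 8. Rplp0 had 220.1, 278.5, 55.7 and 59.4 FPKM after hypoxia and 611.6, 146.2, 515.4 and 123.2 FPKM after normoxia, with a log2 change of -1.20 ± 0.88 (SE; limma adjusted p = 0.836). Rplp2 was lower throughout, with hypoxia libraries at 23.9 ± 15.6 FPKM and normoxia libraries at 79.4 ± 80.6 FPKM (SD, n = 4 each). All 3 were among the 26 members whose shares of protein-coding FPKM did not overlap: Rplp0 made up 1100 to 1693 parts per 1000000 of that total after hypoxia and 2023 to 3098 parts after normoxia. The gap was narrow for Rplp1, at 2222 parts in hypoxia 1 and 2242 in normoxia 6. For Rplp2 these libraries had 298.3 and 305.7 parts. Whether the 3 stay apart with the 20 highest genes left out of the total was not tested.

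Rpl12, which sits at the base of the same stalk, was singled out after its values were seen. It lies at chr2:32961559-32965345 (GRCm38) and stood at 28.8, 27.4, 6.16 and 6.61 FPKM in hypoxia libraries 1 to 4 and at 77.5, 23.0, 88.1 and 19.8 FPKM in normoxia libraries 5 to 8. As deposited its groups overlapped, since hypoxia 1 and 2 exceeded normoxia 6 and 8, and the log2 change was -1.60 ± 0.79 (SE; limma adjusted p = 0.556). In parts per 1000000 of protein-coding FPKM it had 221.5, 159.6, 122.9 and 122.4 after hypoxia and 385.6, 318.0, 529.7 and 395.5 after normoxia, and these groups did not overlap. The change on that scale was -1.37 ± 0.33 (SE; limma adjusted p = 0.0736), and under quantile normalization -1.31 ± 0.31 (SE; limma adjusted p = 0.0467).

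Rpl5 and Rpl11 join the 5S rRNA in the particle that binds MDM2. Rpl5 had the smallest difference of the classical members, at 50.7, 69.2, 14.1 and 15.8 FPKM after hypoxia and 41.6, 32.5, 110.4 and 24.6 FPKM after normoxia (log2 change -0.55 ± 0.80, SE; limma adjusted p = 0.992). Unlike most members, it was not raised in normoxia 5. Rpl11 had 48.4, 58.0, 14.2 and 14.5 FPKM after hypoxia and 128.9, 33.0, 131.9 and 22.8 FPKM after normoxia, a log2 change of -1.10 ± 0.84 (SE; limma adjusted p = 0.847). The partners share a complex, and their levels differed mainly in normoxia 5, where Rpl11 was about as high as in normoxia 7 and Rpl5 was not.

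Rps6, the 40S protein that S6 kinases phosphorylate downstream of mTORC1, stood at 128.9, 148.8, 38.9 and 40.2 FPKM in hypoxia libraries 1 to 4 and at 114.2, 84.2, 255.8 and 70.3 FPKM in normoxia libraries 5 to 8. Its log2 change was -0.63 ± 0.83 (SE; limma adjusted p = 0.981). Normoxia 7 was its one high library. Rpsa, a 40S protein also known as the laminin receptor, had 92.8, 100.5, 23.2 and 25.3 FPKM after hypoxia and 407.8, 64.1, 255.3 and 55.2 FPKM after normoxia, with a log2 change of -1.51 ± 0.88 (SE; limma adjusted p = 0.698). Its share did not overlap between the groups, at 463 to 714 parts per 1000000 of protein-coding FPKM after hypoxia and 887 to 2029 parts after normoxia.

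Rps19, a 40S assembly protein mutated in Diamond-Blackfan anaemia, averaged 11.2 ± 9.18 FPKM in the hypoxia and 38.3 ± 37.6 FPKM in the normoxia libraries (SD, n = 4 each). Rps3, a 40S protein at the messenger entry channel, averaged 34.8 ± 27.7 FPKM in the hypoxia and 57.6 ± 43.6 FPKM in the normoxia libraries (SD, n = 4 each). Rps27a, made as a fusion with ubiquitin, averaged 19.7 ± 19.2 FPKM in the hypoxia and 40.2 ± 33.2 FPKM in the normoxia libraries (SD, n = 4 each). In all 3 the spread within a group was about as large as the group mean. The values of Rps27a are also uncertain, since its copy Rps27a-ps2 had 2.302 times its mean FPKM. The X-linked Rps4x averaged 85.2 ± 68.3 FPKM in the hypoxia and 207.6 ± 158.1 FPKM in the normoxia libraries (SD, n = 4 each), and Rpl10, another X-linked member that joins the 60S subunit late in its assembly, had 36.6 ± 30.4 and 69.3 ± 50.8 FPKM (SD, n = 4 each). A copy, Rpl10-ps6, had 1.666 times the mean FPKM of Rpl10, whose values are likewise uncertain. Rpl13a, which also acts outside the ribosome in the GAIT complex, averaged 58.7 ± 45.1 FPKM in the hypoxia and 140.4 ± 129.6 FPKM in the normoxia libraries (SD, n = 4 each).

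Rps15, a 40S protein of the subunit head, had the highest mean of the family (782.5 FPKM). It stood at 295.2, 307.1, 88.5 and 85.9 FPKM in hypoxia libraries 1 to 4 and at 4576, 172.8, 626.4 and 108.4 FPKM in normoxia libraries 5 to 8. Its mean after normoxia rests on normoxia 5, which was 7.31 times normoxia 7. The short gene of Rpl41, the smallest ribosomal protein, was also high there, at 1122 FPKM against 69.0 to 505.8 FPKM in normoxia 6 to 8.

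The largest differences in the mean were in Rpl37a, Rpl38 and Rps12. Rpl37a, a zinc-finger protein of the 60S subunit, stood at 60.7, 57.4, 1.77 and 6.73 FPKM in hypoxia libraries 1 to 4 and at 515.4, 17.9, 134.6 and 14.9 FPKM in normoxia libraries 5 to 8 (log2 change -2.10 ± 1.09, SE; limma adjusted p = 0.598). Hypoxia 3 was far below the other libraries, and hypoxia 1 and 2 were above normoxia 6 and 8. Rpl38, known for its part in the translation of Hox messengers, had 79.0, 92.0, 15.2 and 8.88 FPKM after hypoxia and 534.2, 44.0, 177.8 and 33.0 FPKM after normoxia (log2 change -1.76 ± 0.96, SE; limma adjusted p = 0.643). Rps12 had 21.4, 16.7, 1.62 and 1.38 FPKM after hypoxia and 33.0, 6.62, 57.7 and 13.1 FPKM after normoxia (log2 change -1.74 ± 0.84, SE; limma adjusted p = 0.523). The values of Rps12 are uncertain, since Rps12-ps3, Rps12-ps9 and Rps12-ps4 had 2.956, 2.793 and 1.521 times its mean FPKM. Rps12-ps3 stood at 65.94, 32.92, 38.09 and 33.98 FPKM after hypoxia and at 60.59, 63.71, 124.7 and 28.08 FPKM after normoxia. The change of Rps12 with these copies counted in was not tested. Rps13, looked at after its values were seen, had 21.2, 16.2, 4.15 and 3.47 FPKM after hypoxia and 91.1, 14.4, 46.1 and 10.53 FPKM after normoxia (log2 change -1.68 ± 0.80, SE; limma adjusted p = 0.512).

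Relative to one another the members kept a nearly fixed order, apart from normoxia 5. Across members, the Spearman correlation of levels between libraries was 0.864 to 0.981 among the 7 other libraries and 0.731 to 0.756 between normoxia 5 and each of these. The median Pearson correlation between pairs of members over the 8 libraries was 0.948, and 0.981 over 7 without normoxia 5. These are descriptions over libraries that share each library's scale, and members are not independent. With each library centred on the family median, a member's level had a median SD of 0.42 on the log2 scale over 8 libraries and 0.23 without normoxia 5, and 60 members were then under 0.3. Rps18, a small subunit protein, was among those that followed the family most closely (SD 0.08 over 8 libraries). The summed FPKM of the large subunit members over that of the small was 1.42 ± 0.0330 after hypoxia and 1.45 ± 0.0401 after normoxia (SD, n = 4 each), and the groups overlapped.

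After this centring, 7 members had groups that did not overlap (8.43%, against 7.12% of all genes), a share near the background, and 0 were called. They were Rpl10a, Rpl12, Rpl32, Rpl3l, Rps18, Rps4x and Rpsa. Rpl12 lay 0.58 nearer to the family median after normoxia than after hypoxia, and Rps18 only 0.11.

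Normoxia 5 changed the make-up of the family as well as its level. Its excess over the mean of normoxia 6 to 8 had a median of 2.41 on the log2 scale in the shorter members and 1.46 in the longer ones, split at the median exon length. The members without an excess there were Rpl7a (-1.24), Rps3a1 (-0.18), Rpl22l1 (-0.17), Rpl5 (-0.10), Rps7 (-0.07), Rpl4 (-0.06), Rps6 (-0.01) and Rps23 (-0.00). The rank correlation of the excess with exon length across members was -0.35, as a description. The part of length in the level of a member was not tested.

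**Figure D4:**
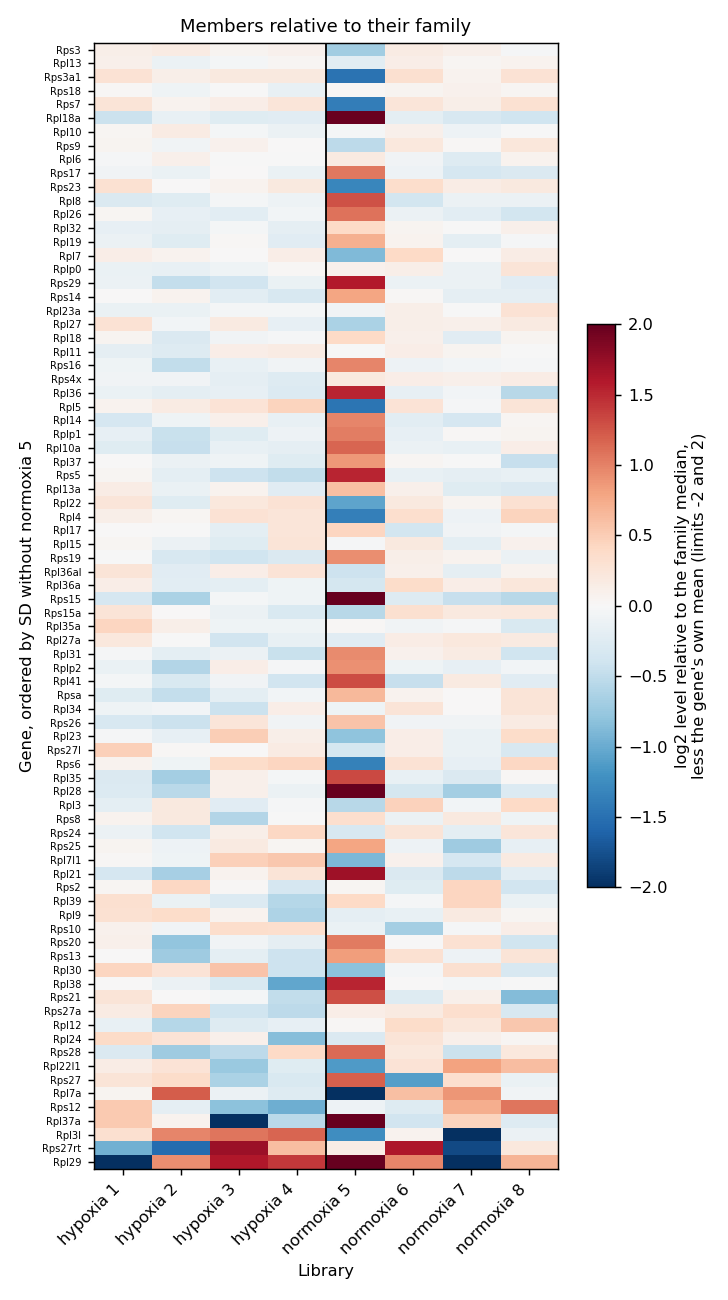
Log2 level of the tested members (1 not shown) relative to the family median of the library, less the member's own mean over 8 libraries (red above, blue below, colours limited at -2 and 2), with members ordered by their SD without normoxia 5. Normoxia 5 departs in many members, and among the other libraries the departures lie mainly in the lowest lines, Rpl29, Rps27rt, Rpl3l, Rpl37a and Rps12.

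Rpl29 and Rps27rt departed most from the family and were chosen after their values were seen. Rpl29, a 60S protein, stood at 0.91, 62.6, 18.9 and 16.4 FPKM in hypoxia libraries 1 to 4 and at 934.5, 28.1, 0.99 and 17.3 FPKM in normoxia libraries 5 to 8. It was near 1 FPKM in 1 library of each group, hypoxia 1 and normoxia 7, in which the family as a whole was high. Rps27rt, a copy of Rps27 annotated as 1 stretch of 374 bases without introns, had 26.1, 22.0, 40.6 and 18.9 FPKM after hypoxia and 134.3, 88.0, 33.8 and 25.1 FPKM after normoxia, an order unlike that of Rps27. Rpl7a, also chosen after its values were seen, had 15.6, 45.2, 3.02 and 2.68 FPKM after hypoxia and 6.95, 12.7, 65.5 and 5.79 FPKM after normoxia.

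Near-identical copies can share reads with a member, so single values of such members are uncertain. The table held 226 entries with -ps names after members, nearly all annotated as pseudogenes, and 56 members had at least 1. For 16 of these entries the mean FPKM exceeded that of the parent member, some sharing a parent, and Rpl7a-ps11 had 4.40 times the mean of Rpl7a. The summed FPKM of these copies was 28.5% to 41.6% of that of the family in the hypoxia libraries and 19.6% to 32.2% in the normoxia libraries. How the deposited values split reads between copies is not given in the sources used here.

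Paralogues of classical members were compared with them as ratios of FPKM + 0.5 within each library. Such ratios depend little on the scaling between libraries where both genes are far above 0.5 FPKM, which Rpl3l was not. Of 8 pairs considered, 5 could be tested: Rpl10l was at 0, and Rpl39l and Rps4l were not analysed here. None passed at an adjusted p under 0.05 (Benjamini-Hochberg over 5 pairs), and the smallest two-sided exact permutation p that 4 against 4 libraries allow is 0.0286. Rpl36al/Rpl36a and Rpl3l/Rpl3 reached that value with groups that did not overlap, and both had an adjusted p of 0.0714.

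Rpl36al, a copy without annotated introns of the X-linked Rpl36a, had log2 ratios of 0.68, 0.54, 0.87 and 0.92 in hypoxia libraries 1 to 4 and of 0.49, 0.29, 0.23 and 0.39 in normoxia libraries 5 to 8. The mean was 0.75 ± 0.18 after hypoxia and 0.35 ± 0.12 after normoxia (SD, n = 4 each), a difference of 0.40. The gap between the groups was narrow, from 0.49 in normoxia 5 to 0.54 in hypoxia 2. A further limit is Rpl36a-ps2, a pseudogene copy with 1.27 times the mean FPKM of Rpl36a. It was above Rpl36a in every library except normoxia 5 (40.7 against 48.9 FPKM). The ratio with this copy counted in was not tested, so the separation is uncertain. Rpl3l, the striated muscle form of Rpl3, had log2 ratios of -4.95, -4.70, -4.19 and -4.29 after hypoxia and of -6.16, -5.86, -7.67 and -6.00 after normoxia. The means were -4.53 ± 0.36 and -6.42 ± 0.84 (SD, n = 4 each), a difference of 1.89 (two-sided exact permutation p = 0.0286). All 4 hypoxia libraries were above all 4 normoxia libraries.

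The ratio of Rpl3l rests on very low values. Rpl3l lies at chr17:24727820-24736143 (GRCm38), 5890 bases downstream of Rps2 on the same strand. It stood at 1.10, 2.71, 0.16 and 0.20 FPKM in hypoxia libraries 1 to 4 and at 0.78, 0.25, 0.13 and 0.00 FPKM in normoxia libraries 5 to 8. As deposited it was the 1 tested member above 0, with a log2 change of 0.74 ± 0.47 (SE; limma adjusted p = 0.759), and its groups overlapped. It was under the pseudocount of 0.5 in 5 of 8 libraries, so its ratio there also follows the level of Rpl3 in the library, and the difference in ratio was 2.47 with a pseudocount of 0.1 and 1.65 with 1. Without a pseudocount, Rpl3l was 1.39% to 3.26% of the FPKM of Rpl3 after hypoxia and at most 0.858% after normoxia. Of 8 markers of skeletal muscle and testis, 4 were in the table and their sum was at most 2.30 FPKM in any library.

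The other 3 pairs had groups that overlapped. Rps27l, a p53 target, over Rps27 had a mean log2 ratio of -0.56 ± 0.43 after hypoxia and -1.05 ± 1.15 after normoxia (SD, n = 4 each; two-sided exact permutation p = 0.486). Rpl22l1 over Rpl22, a pair known from lymphocyte development, had -2.31 ± 0.62 and -1.78 ± 0.36 (SD, n = 4 each; exact p = 0.20). Rpl7l1, a nucleolar relative of Rpl7, over Rpl7 had -2.42 ± 0.32 and -2.73 ± 0.20 (SD, n = 4 each; exact p = 0.171). A p above the threshold does not show that these ratios were alike.

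**Figure D5:**
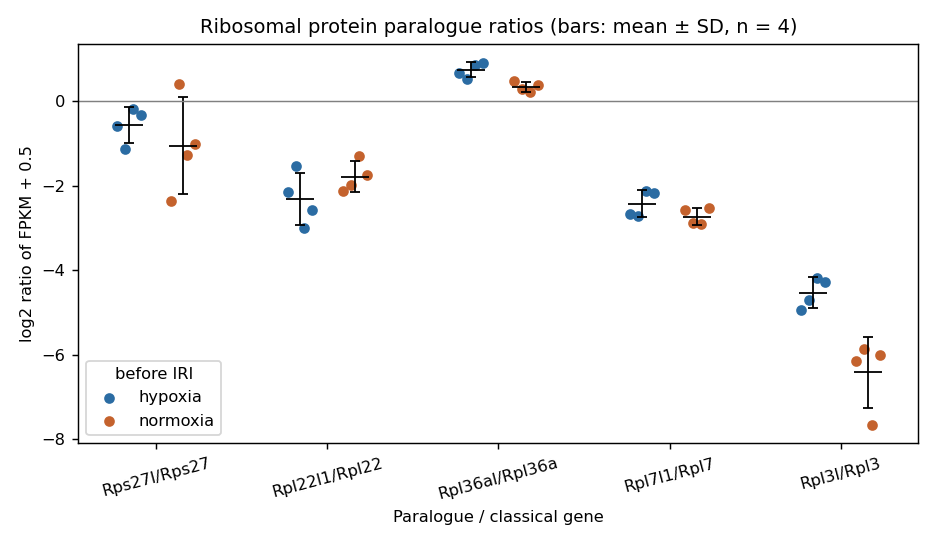
Log2 ratio of paralogue to classical gene (FPKM + 0.5) in each library for 5 pairs, hypoxia in blue and normoxia in orange, with mean ± SD (n = 4) in black. The 2 groups separate for Rpl36al/Rpl36a and Rpl3l/Rpl3 and overlap for the other 3 pairs.

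Genes that build ribosomes or act with them were read from 7 lists of 122 entries (120 tested). As deposited, none was called higher or lower by limma, and the list medians lay on both sides of the median of all genes (-0.14). The 40 genes of ribosome biogenesis and RNA polymerase I had a median log2 change of -0.60, with 37 below 0. The 19 elongation and other TOP-messenger factors had a median of -0.46 (19 below 0), and the 23 initiation factors -0.40 (20 below 0). The 8 snoRNA host genes with TOP starts had a median of -0.53 (8 below 0) and the 8 genes of the 5S particle, MDM2 and p53 axis -0.36 (7 below 0). The 20 tested regulators (mTORC1, S6 kinases, LARP1, MYC) had 0.08, with 8 below 0.

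Named from these lists by smallest p, Fau, whose product is the 40S protein eS30 fused to a ubiquitin-like domain, stood at 94.1, 104.4, 21.6 and 20.6 FPKM in hypoxia libraries 1 to 4 and at 750.9, 47.8, 181.7 and 31.7 FPKM in normoxia libraries 5 to 8, the layout of the members. Eif6, which keeps free 60S subunits apart from 40S, averaged 10.6 ± 9.33 FPKM in the hypoxia and 44.7 ± 43.0 FPKM in the normoxia libraries (SD, n = 4 each; limma adjusted p = 0.420). Myc, which drives transcription of ribosome genes, had 2.05 ± 1.02 and 6.73 ± 5.08 FPKM (SD, n = 4 each; limma adjusted p = 0.481), and Trp53 had 3.55 ± 2.41 and 10.5 ± 9.18 FPKM (SD, n = 4 each; limma adjusted p = 0.491).

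The ribosome biogenesis list gave more calls than the ribosomal proteins once normoxia 5 was left out. With TMM scaling and without that library, 6 of 40 biogenesis genes fell (Nop56, Gar1, Dkc1, Nop58, Ncl and Mybbp1a) and 0 of 83 ribosomal protein genes, where 5.32% of all genes were called lower. Gar1, Dkc1, Nop56 and Nop58 are proteins of the small nucleolar particles that modify rRNA, but Fbl, Nhp2 and Nop10 of the same particles were not called, with log2 changes of -0.68, -0.68 and 0.25. Gar1 had a log2 change of -1.02 ± 0.22 (SE; limma adjusted p = 0.0262) and Nop58 of -0.92 ± 0.19 (SE; limma adjusted p = 0.0212). Myc fell by 1.5 ± 0.20 (SE; limma adjusted p = 0.00727) and Trp53 by 1.27 ± 0.29 (SE; limma adjusted p = 0.0283) in the same fit. Myc was the only 1 of 21 regulators called there, with 7 below 0 and a list median of 0.22. Trp53 was the only 1 of 8 genes called in the 5S particle, MDM2 and p53 list, with 8 below 0 and a median of -0.51. With protein-coding scaling and without normoxia 5, 18 of the 40 biogenesis genes and 7 of the 83 ribosomal protein genes fell, against the 11.9% of all genes given above. The set with more calls did not have the lower median. With TMM scaling without normoxia 5, the median log2 change was -0.36 for biogenesis genes and -0.42 for ribosomal protein genes. With protein-coding scaling without that library, the medians were -0.68 and -0.79. The difference between the 2 sets was not tested.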

How the data were processed

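Poly(A) RNA of 8 kidneys was sequenced from TruSeq stranded libraries, per the labels' protocols. The deposited table gives FPKM per gene and library, per the file headers, and the submitters' processing notes name the tools HISAT2, StringTie and edgeR without versions. Their roles and the genome build were not given in the sources used here. Symbols, exon lengths and gene coordinates came from GENCODE M21 (GRCm38), matched by Ensembl identifier.

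The comparison used log2(FPKM + 0.5) of the 14444 genes with a mean of at least 0.5 FPKM, tested over the whole table with limma 3.58.1 (R 4.3.3, lmFit, eBayes with trend, two-sided) and a Benjamini-Hochberg adjusted p under 0.05. On this scale the change of a low gene is understated. The script was tested on simulated data in which each gene was drawn independently. That simulation held no library effect shared by the genes, so it does not cover the shared scale of these libraries. Depth was estimated from the spacing of low FPKM values in single-exon genes of 600 to 3000 bases. Fragment shares were FPKM times exon length. Paralogue ratios had exact permutation tests over 70 assignments (Python 3.11.15). Alternatives were pseudocounts of 0.1 and 1, no filter or a filter of 2 FPKM, TMM and quantile scaling, removal of the exon length trend (loess, span 0.5), centring on the family median, and each library left out.

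The members and lists were chosen with earlier results of these data known. Named members were the 3 largest and 3 smallest changes, the 2 highest and 2 lowest means, and genes fixed by role, and from each list up to 4 genes that passed or the 2 with the smallest p. Rpl29, Rps27rt, Rpl7a, Rpl12 and Rps13 were added after their values were seen, and other members are given in counts or as examples. Replicate numbers are not shared between the groups. Items withheld for evaluation are not reported here.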

Additional observations from a re-analysis of the deposited data

Results flagged for a closer look

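In groups of 4 libraries, the library at 1 end was compared with its nearest neighbour: a gap above Dixon's 95% critical share of the group's range was met in 5 of the 84 groups checked, where chance gives about 1 in 20. The groups were those of the 34 named members, the 5 paralogue ratios and 3 family measures. Over all 83 tested members, normoxia 5 was the highest normoxia library by such a gap in 4 and normoxia 7 in 3. For 4 of the 5, the library apart was the highest of the normoxia group. Rps15 had 4576 FPKM in normoxia 5 (gap 0.884 of the range) and Rpl29 had 934.5 FPKM there (gap 0.971). Rpl22l1 had 22.88 FPKM in normoxia 7 (gap 0.876) and Rpl7a had 65.49 FPKM there (gap 0.885). The log2 ratio Rpl3l/Rpl3 was -7.67 in normoxia 7, the lowest of its group (gap 0.836).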

How the results depend on the processing

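Over the 34 named members, 712 values were recomputed under 21 alternatives: 680 kept direction and side of the threshold, 6 passed it and 26 changed sign. Alternatives with protein-coding scaling, and the versions of family centring and length correction without normoxia 5, were chosen after seeing the data. No member was called higher under any alternative. Members called lower numbered 1 with quantile normalization and 7 with protein-coding scaling without normoxia 5, and 0 under the rest. The median change ran from -1.61 to -0.72 with 1 library left out, and the difference in share of protein-coding FPKM from -5.62 to -2.62 percentage points. Genes of the related lists called lower are given with the number of all tested genes called lower in brackets. There was 1 with a filter of 2 FPKM (79 of 8466) and 1 with TMM scaling (191 of 14444). The length trend removed gave 1 (251 of 14444), and family centring without normoxia 5 gave 1 (41 of 14414). Quantile normalization gave 3 (349 of 14444), and TMM scaling without normoxia 5 gave 10 (767 of 14414). With the length trend removed without normoxia 5, 14 were lower (869 of 14414) and 1 was higher (717 of all genes). Protein-coding scaling without normoxia 5 gave 36 (1709 of 14414). With 1 library left out there were 0 to 1 (1 without normoxia 6, 207 of 14453).

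Centred on the family median, signs changed for Rpl5 (0.48), Rpl7l1 (0.48), Rps6 (0.40), Rps3 (0.22), Rpl10 (0.02), Rps27l (0.34), Rpl22 (0.25), Rpl36al (0.21), Rpl7 (0.17) and Rpl7a (0.45). Centred without normoxia 5, they changed for Rpl5 (0.07), Rpl7l1 (0.26), Rps15 (0.15), Rps6 (0.01), Rps3 (0.03), Rpl10 (0.01), Rpl13a (0.11), Rps27 (0.22), Rps27l (0.28), Rpl36al (0.11) and Rpl29 (1.16). Centring removes the family's shared change by construction. Rpl29 also changed sign without normoxia 5 as deposited (0.52), with TMM (0.71), with protein-coding scaling (0.39) and with the length trend removed (0.70), and its values with 1 library left out ran from -2.58 to 0.52. Rpl7a reached 0.16 without normoxia 7 (lowest -1.33). The cause was not tested. The Rpl36al/Rpl36a difference was 0.34 to 0.47 with 1 library left out, and its exact p was 0.0571 without any 1 normoxia library. No paired analysis was possible because the groups share no replicate numbers. Depth limits Rpl3l and Rpl22l1, which rest on few fragments.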
